A study of Homo sapiens with 6 samples.

Results

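The surrogate light chain and precursor B genes were 10 genes linked to the surrogate light chain, recombination, B cell precursors or blood progenitors. The members were IGLL1, VPREB1, VPREB3, DNTT, RAG1, RAG2, IL7R, CD34, ERG and SOX4. They were read at every probe set that the platform annotation assigned to 1 of them alone, which gave 22 of 54613 tested probe sets and 10 of 19775 named genes. They were chosen by their known roles and by their log2 differences between LEF1 siRNA and scrambled siRNA on these arrays. Those differences are therefore given as a description, and counts of calls among them are not read as a test. The samples were 6 cultures of BL2, an established human Burkitt lymphoma line, all electroporated. In 3 of them a pool of 4 siRNAs against LEF1 was delivered, and in the other 3 a scrambled siRNA. The labels name 3 batches, with an array from either group in every batch. The time from electroporation to harvest is not given in the sources used here. Because 1 cell line was used, the arrays show how its cultures vary, not how Burkitt lymphomas vary.

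A precursor B cell first joins the gene segments of its immunoglobulin heavy chain. RAG1 and RAG2 cut the segments, and DNTT, the terminal deoxynucleotidyl transferase, adds bases at the joints without a template. The new heavy chain is then tested with a surrogate light chain built from VPREB1 and the lambda5 protein of IGLL1, and the 3 parts with CD79A and CD79B form the pre-B cell receptor. In mice, LEF1, a DNA-binding partner of beta-catenin, is made in early B cells and is lost as they mature. Burkitt lymphoma arises from germinal-centre B cells, which have passed these steps.

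The promoter windows of IGLL1 and VPREB1 are shown because these genes encode the parts of the surrogate light chain. That of DNTT is shown because its array profile was closest to IGLL1 among the 10 genes. Those profiles hold the siRNA contrast that chose the genes, so nothing is read from this closeness. The sequences are from RefSeq, build GRCh38.p14, read 5′ to 3′ on the strand of the gene, from 250 bases before the start site to 50 bases after it. The window of IGLL1 is chr22:23580241-23580540 on the minus strand, that of VPREB1 is chr22:22244536-22244835 on the plus strand, and that of DNTT is chr10:96304184-96304483 on the plus strand. Capitals mark matches to CTTTGA or CTTTGT on either strand, the letters that LEF1 and its TCF relatives are known to bind.
IGLL1: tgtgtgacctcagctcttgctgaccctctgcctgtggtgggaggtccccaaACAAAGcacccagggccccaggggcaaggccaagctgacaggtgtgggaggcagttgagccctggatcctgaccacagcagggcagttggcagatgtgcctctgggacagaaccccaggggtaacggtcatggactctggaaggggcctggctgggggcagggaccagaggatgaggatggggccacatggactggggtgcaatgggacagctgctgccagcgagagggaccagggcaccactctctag
VPREB1: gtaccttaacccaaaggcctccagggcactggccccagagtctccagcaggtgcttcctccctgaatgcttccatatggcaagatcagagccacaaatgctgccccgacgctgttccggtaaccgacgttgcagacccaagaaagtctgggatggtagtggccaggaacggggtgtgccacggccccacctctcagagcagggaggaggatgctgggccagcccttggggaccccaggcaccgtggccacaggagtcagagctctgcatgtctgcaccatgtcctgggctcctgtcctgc
DNTT: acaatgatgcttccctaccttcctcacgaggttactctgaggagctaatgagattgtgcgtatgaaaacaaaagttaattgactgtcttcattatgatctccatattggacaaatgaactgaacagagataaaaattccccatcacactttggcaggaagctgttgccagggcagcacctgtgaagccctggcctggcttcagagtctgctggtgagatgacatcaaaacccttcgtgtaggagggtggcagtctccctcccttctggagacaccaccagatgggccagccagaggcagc
All 10 genes had a window in the table, and ERG had 4. The IGLL1 window held 1 match, to CTTTGT on the opposite strand at position -199 from the start site, and the windows of the other 9 genes held none. A match was present in 26.2% of all 35116 windows of 300 bases. The 5-base core CTTTG, which these motifs contain, was found in windows of 6 genes and in 47.5% of all windows. The E-box CANNTG, bound by E proteins, was in windows of 9 genes, against 68.7% of all windows. A gene counted if any of its windows matched, and ERG had 4, while the shares are of single windows. A match describes the letters of the window only.

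LEF1 itself was lower on every LEF1 siRNA array. Its brightest probe set read 8.32 ± 0.30 with LEF1 siRNA and 11.04 ± 0.43 with scrambled siRNA (log2 expression, SD, n = 3 each). The fall within batches was -2.87, -2.49 and -2.78 (limma adjusted p = 0.0213 without block). Further LEF1 probe sets differed by -1.84 and -0.29 (limma adjusted p = 0.00418 and 0.284 without block). They kept 28.0% and 81.5% of the signal, against 15.2% at the brightest. Of 9 measured markers of mature and germinal-centre B cells, 8 lay above 6.91, the median of all probe sets, on all 6 arrays, and CR2 did not. Of 7 T cell, 6 myeloid and 6 epithelial markers, 2, 0 and 1 did. With batch as block limma called 3 of these markers, namely the B cell genes MME at -0.43 and CD40 at 0.39 and the epithelial gene ELF3 at 0.22 (limma adjusted p = 0.000605, 0.0108 and 0.0307). Their part in the differences below was not tested. The mean levels of the T cell, myeloid and epithelial lists ran from 6.73 to 6.77, 6.48 to 6.59 and 6.81 to 6.92 with LEF1 siRNA. With scrambled siRNA these 3 lists ran from 6.70 to 6.79, 6.54 to 6.60 and 6.75 to 6.85. The actin probe sets at the 3′ end exceeded those at the 5′ end by 0.18, 0.30 and 0.22 with LEF1 siRNA and by 0.07, -0.03 and 0.10 with scrambled siRNA, so these groups did not overlap. For GAPDH the same gap was 0.038, 0.061 and 0.099 with LEF1 siRNA, against 0.037, 0.062 and 0.099 with scrambled siRNA. The part of RNA quality in the differences below was not tested.

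IGLL1 was read at its only probe set and was lower with LEF1 siRNA in every batch. The log2 expression of IGLL1, the lambda5 part of the surrogate light chain, was 9.24, 8.80 and 8.96 in batches 1, 2 and 3 with LEF1 siRNA, against 10.59, 9.94 and 10.05 with scrambled siRNA. The groups did not overlap, and the highest LEF1 siRNA array lay below the lowest scrambled siRNA array. The differences were -1.35, -1.14 and -1.08 in batches 1, 2 and 3, with a mean of -1.19 ± 0.14 (SD, n = 3 batches), so that 43.8% of the signal was left. On bulk arrays, fewer cells with the transcript and less transcript per cell cannot be told apart.

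VPREB1, the partner of IGLL1 in the surrogate light chain, stayed below the median of all probe sets on every array. It read 6.76, 6.63 and 6.61 with LEF1 siRNA, against 6.77, 6.80 and 6.62 with scrambled siRNA. The groups overlapped, and 2 of 3 batch differences were -0.01. No detection calls were used, so a VPREB1 level this low could not be told from background. VPREB3, a relative of VPREB1 whose protein associates with immunoglobulin chains inside the cell, was well above the median and did not go the way of IGLL1. It read 8.84, 8.88 and 8.79 with LEF1 siRNA, against 8.59, 8.81 and 8.68 with scrambled siRNA. It was higher with LEF1 siRNA in each batch, by 0.25, 0.07 and 0.11, while the lowest LEF1 siRNA array lay below the highest scrambled siRNA array. Under poly-A spike-in scaling, described below, its mean difference of 0.15 shrank to 0.03.

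IGLL1 has close relatives in the lambda light chain locus, so their probe sets are set beside it. The near copy IGLL5 read 7.29 ± 0.13 with LEF1 siRNA and 7.18 ± 0.10 with scrambled siRNA at its brightest probe set (SD, n = 3 each; limma adjusted p = 0.380 with batch as block). Its other 2 probe sets differed by 0.08 and 0.01. IGLC1, a lambda constant region, was 14.33 ± 0.06 with LEF1 siRNA and 14.58 ± 0.12 with scrambled siRNA at its brightest probe set. Its difference of -0.24 passed with batch as block (limma adjusted p = 0.0457). A second IGLC1 probe set also passed, at -0.26 (limma adjusted p = 0.0341), and the other 7 did not. The call at the brightest was lost after quantile normalization (limma adjusted p = 0.181) and cyclic loess (limma adjusted p = 0.118), and without batch 2 or 3 (limma adjusted p = 0.0879 and 0.338). How far transcripts of one of these genes bind probes of another was not tested.

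The recombination genes were DNTT and the RAG pair. The brighter DNTT probe sets lay above the median of all probe sets on every array, while the RAG pair lay near or below it. The brightest DNTT probe set read 7.53, 7.37 and 7.68 with LEF1 siRNA, against 8.28, 7.89 and 8.29 with scrambled siRNA. Every LEF1 siRNA array was below every scrambled siRNA array, and the batch differences of -0.75, -0.51 and -0.61 averaged -0.62 ± 0.12 (SD, n = 3 batches). A DNTT probe set of middle brightness gave 7.17, 6.99 and 7.36 with LEF1 siRNA, against 7.88, 7.49 and 7.84 with scrambled siRNA. It showed the same order of arrays between groups, and 67.6% of its signal was left, against 64.9% at the brightest. The dimmest DNTT probe set, at 5.87 ± 0.05 with LEF1 siRNA and 5.97 ± 0.07 with scrambled siRNA (SD, n = 3 each), lay far below the median.

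RAG2, which forms the recombinase with RAG1, read 6.76, 6.55 and 6.42 with LEF1 siRNA, against 7.37, 6.82 and 6.85 with scrambled siRNA. The groups did not overlap, but only the scrambled siRNA array of batch 1 was above the median of 6.91. The batch differences of RAG2 were -0.61, -0.26 and -0.43. RAG1, its neighbour on chromosome 11, was below the median at both probe sets. Its brighter one read 6.54, 6.56 and 6.48 with LEF1 siRNA, against 6.41, 6.47 and 6.66 with scrambled siRNA, and the direction differed between batches. The dimmer one was lower in each batch, at 5.92 ± 0.03 with LEF1 siRNA and 6.08 ± 0.03 with scrambled siRNA (SD, n = 3 each).

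**Figure D1:**
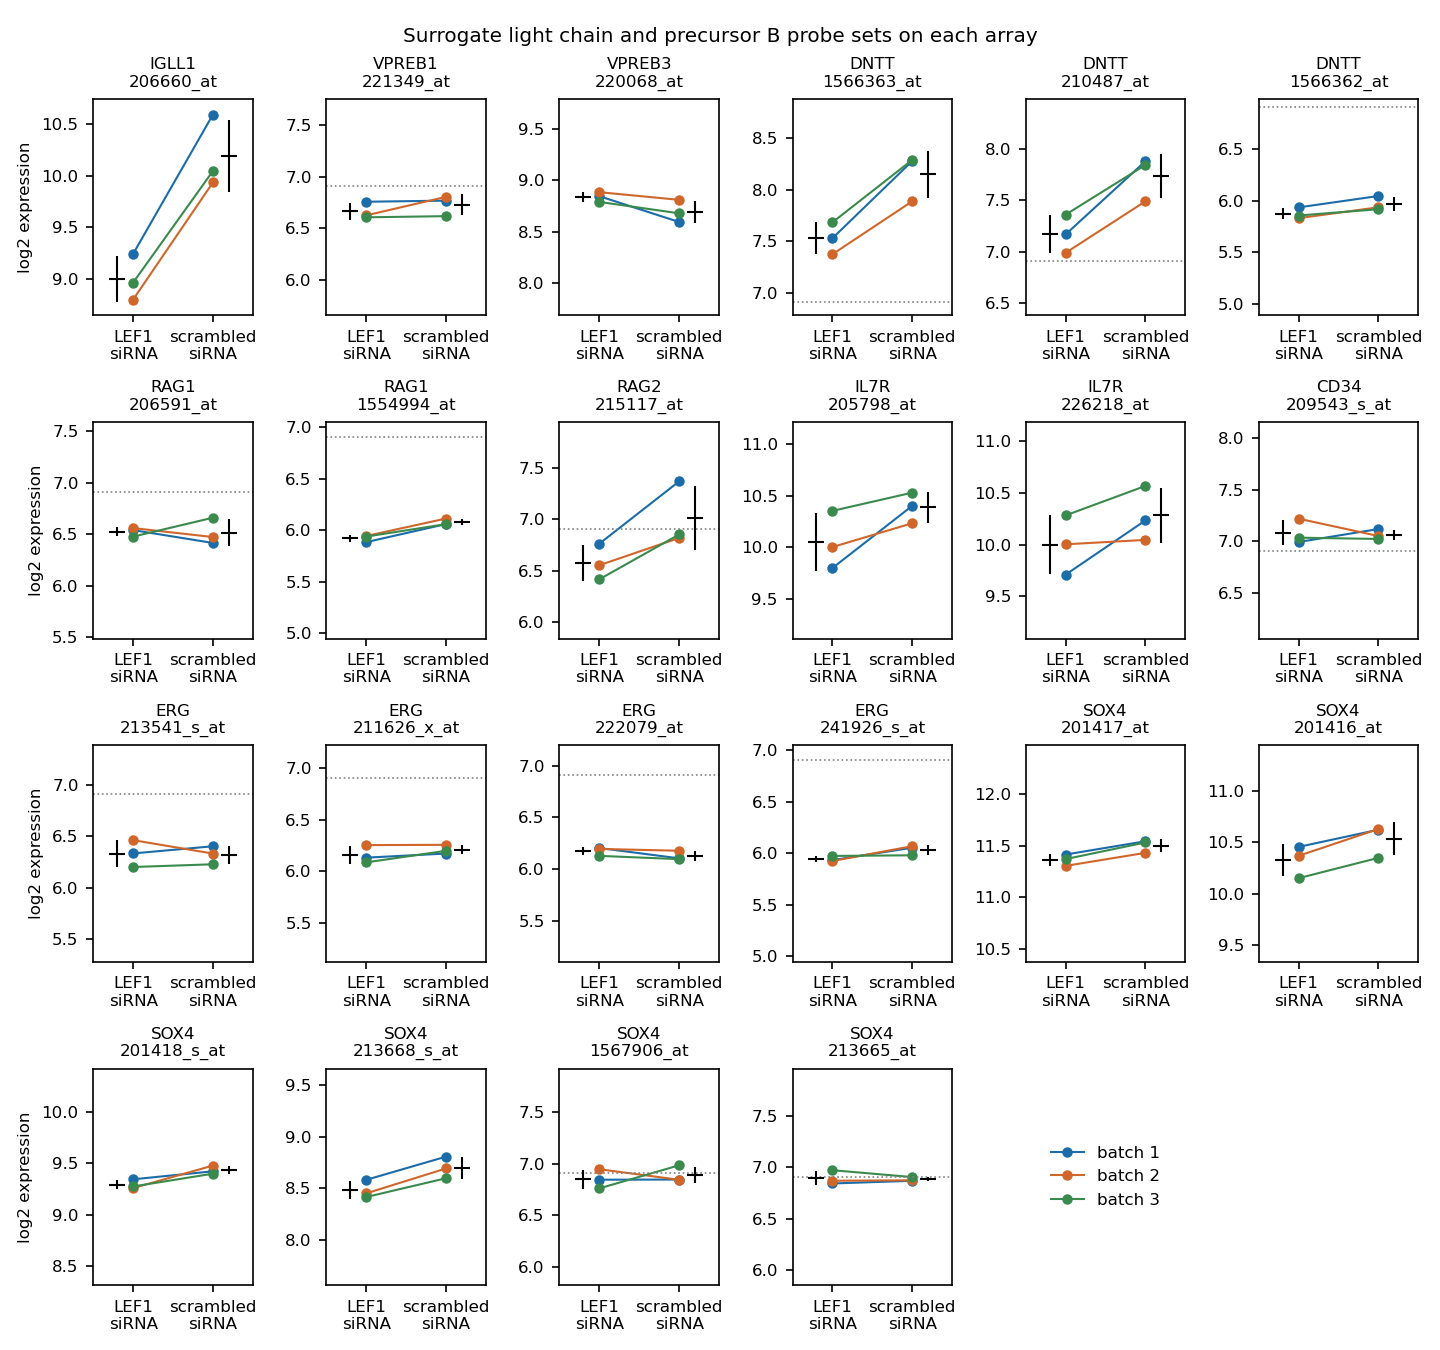
Log2 expression (vertical axis, each panel spanning the same range) of the 22 probe sets with LEF1 siRNA and scrambled siRNA; points joined by a line are the arrays of 1 batch, black bars are mean ± SD of 3 arrays, and the dotted line is the median of all probe sets, 6.91. The lines of IGLL1 and of the brighter DNTT probe sets are separated between groups, while those of VPREB1, RAG1, CD34 and ERG stay near or under the dotted line.

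IL7R, the receptor chain through which interleukin 7 keeps precursor B cells alive and dividing, was bright in both groups. Its brighter probe set read 9.80, 10.00 and 10.35 with LEF1 siRNA, against 10.40, 10.24 and 10.53 with scrambled siRNA. The groups overlapped, because the LEF1 siRNA array of batch 3 exceeded the scrambled siRNA array of batch 2, yet within each batch LEF1 siRNA was lower. The differences were -0.60, -0.23 and -0.18 there, and -0.53, -0.04 and -0.29 at the dimmer IL7R probe set. The size rested largely on batch 1: without it the mean differences of -0.34 and -0.28 became -0.20 and -0.16.

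SOX4, a transcription factor that early B cells need in mice, was well above the median at 4 of 6 probe sets. The brightest read 11.42, 11.31 and 11.37 with LEF1 siRNA, against 11.55, 11.43 and 11.53 with scrambled siRNA. The groups were apart by a small margin at this probe set and overlapped at the next in brightness. All 4 were lower in each batch, with mean differences of -0.14, -0.21, -0.14 and -0.22, and 86.1% to 90.8% of the signal was left. The 2 SOX4 probe sets just under the median differed by -0.04 and 0.01, with batch differences of both signs.

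CD34, a surface protein of blood stem and progenitor cells, read 6.99, 7.22 and 7.03 with LEF1 siRNA, against 7.12, 7.05 and 7.02 with scrambled siRNA. All arrays lay slightly above the median, the groups overlapped, and the batch differences had both signs. ERG, a transcription factor of blood progenitors, was below the median at all 4 probe sets on every array, with mean differences between -0.09 and 0.05. No ERG level could be told from background.

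Of the 22 probe sets, 15 were lower and 2 were higher with LEF1 siRNA in all 3 batches, where 14.4% and 22.1% of all probe sets were. In 9 of the 22 all LEF1 siRNA arrays lay below all scrambled siRNA arrays, as in 4.59% of all probe sets, and in 0 they lay above, against 7.88% of all. The fit with batch as block called 8 probe sets of 5 genes lower, where 1.51% of all probe sets were called lower, and 0 higher, against 4.58%. These were IGLL1, RAG2, 2 of DNTT, 2 of IL7R and 2 of SOX4. The limma fit without block called 0 of the 22, against 0.0183% of all, and 8 had an unadjusted p below 0.05, against 7.84% of all. Without batch 1 the fit with batch as block called 4 lower, against 2.22% of all probe sets, and without batch 2 it called 6, against 0.474%. With poly-A spike-in scaling it called 13 lower, against 14.3% of all. Since this contrast chose the genes, nothing is read from these counts. The median difference was -0.12 over the 22 probe sets and 0.01 over all.

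**Figure D2:**
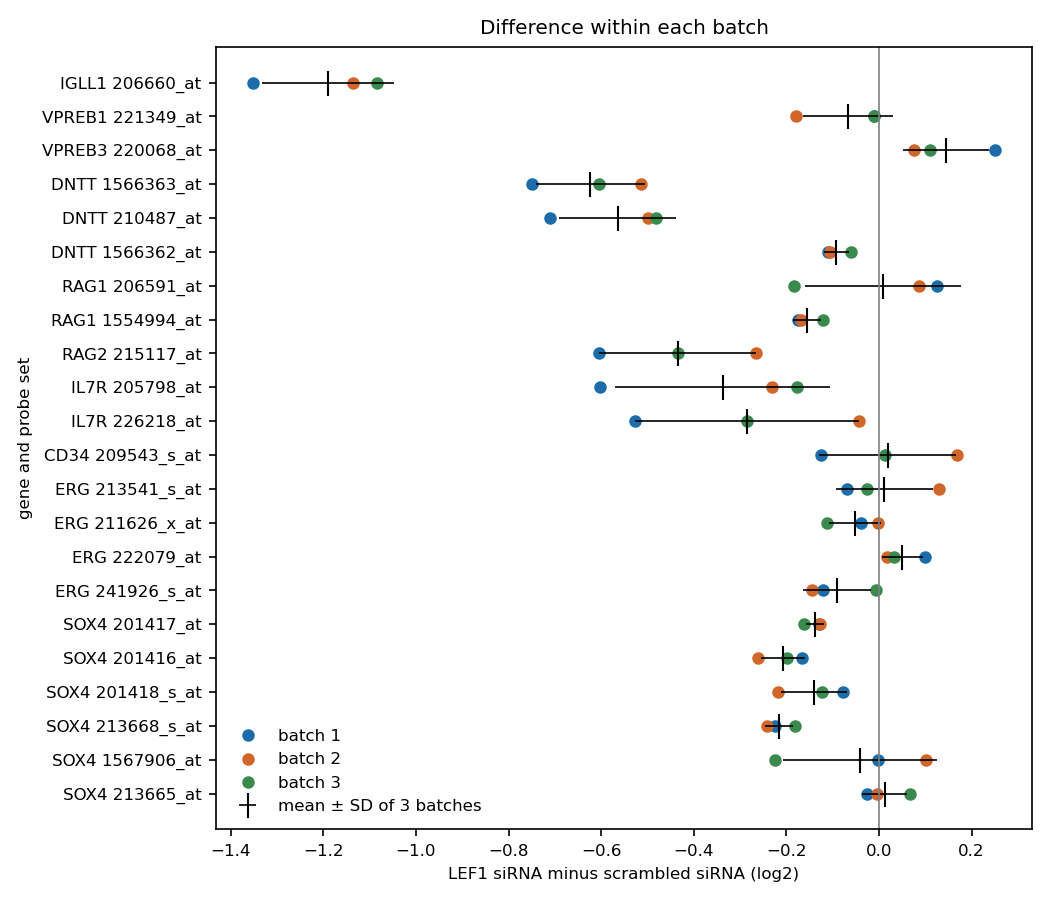
LEF1 siRNA minus scrambled siRNA (log2) in each batch for the 22 probe sets; coloured points are batches, and black bars are mean ± SD of 3 batches. IGLL1 at -1.19 and the brighter DNTT probe sets at -0.62 and -0.56 lie away from 0 in every batch, while VPREB3 lies above 0.

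How the genes differed between batches is a separate measure from the siRNA contrast, and it was tested. With the siRNA group as covariate, 7 of the 22 probe sets differed between batches (limma F test, adjusted over all probe sets), where 13.7% of all probe sets did. Levels matter to such calls: 6 of the 11 probe sets above the median passed, against 24.4% of all probe sets above the median. The probe sets share genes, so the 7 stand for IGLL1, DNTT, RAG2, IL7R and SOX4.

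The genes did not follow 1 order over the batches. IGLL1 averaged 9.92, 9.37 and 9.51 over the arrays of batches 1, 2 and 3 (limma F adjusted p = 0.00115). It was highest in batch 1 in both groups. RAG2 was also highest in batch 1, at 7.06 against 6.68 and 6.63 in batches 2 and 3 (limma F adjusted p = 0.00535). DNTT was lowest in batch 2, at 7.63, against 7.90 in batch 1 and 7.98 in batch 3 (limma F adjusted p = 0.0128). IL7R was highest in batch 3, at 10.44, against 10.10 and 10.12 in batches 1 and 2 (limma F adjusted p = 0.0320). Of the SOX4 probe sets only the next brightest passed, at 10.54, 10.50 and 10.25 in batches 1, 2 and 3 (limma F adjusted p = 0.0215). The range over batches was 0.55 for IGLL1, smaller than its difference of -1.19 between siRNA groups, and 0.34 for IL7R at its brighter probe set, as large as its difference of -0.34. Whether single pairs of batches differ was not tested. Scaling to the poly-A spike-ins, whose mean ran from 7.69 to 8.18 over the arrays, made 19 of the 22 and 89.1% of all probe sets differ between batches, so batch levels hold on the deposited scale only. Without scrambled siRNA replicate 2, 4 of the 22 passed, where 10.1% of all probe sets did.

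**Figure D3:**
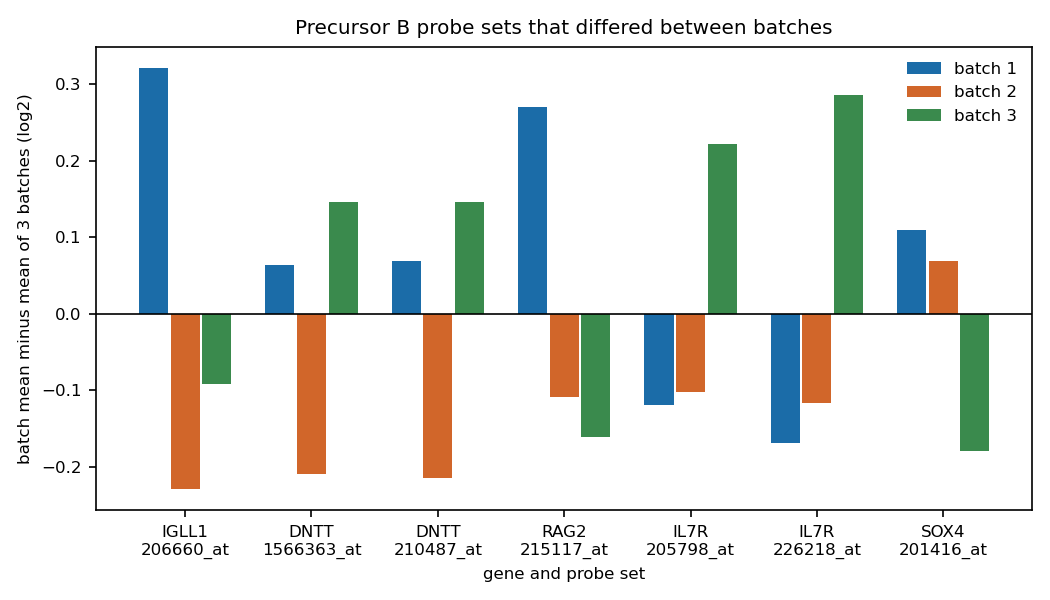
Mean of both arrays of a batch minus the mean of the 3 batches (log2, vertical axis) for the 7 probe sets that passed the F test; bars are batches 1 to 3. IGLL1 and RAG2 are highest in batch 1, IL7R is highest in batch 3, and DNTT is lowest in batch 2.

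The genes whose arrays lay closest to IGLL1 were found by the root mean square distance between profiles centred on their own mean over the 6 arrays, among 12637 genes above the median level. The nearest were ANKRD36BP2 at 0.34, the small heat shock protein gene HSPB1 at 0.39, the histone variant gene H2AZ2 at 0.39, the BMP signal transducer gene SMAD1 at 0.39 and the phosphatase gene CTDSPL at 0.40. ANKRD36BP2 read 8.61, 8.44 and 8.95 with LEF1 siRNA, against 9.58, 8.99 and 9.46 with scrambled siRNA. Among the precursor genes DNTT lay at 0.35, RAG2 at 0.39, IL7R at 0.53, SOX4 at 0.56 and VPREB3 at 0.73. All profiles share the same 6 arrays and hold the siRNA contrast by which the precursor genes were chosen, so nothing is read from their place near IGLL1.

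The other genes of the precursor B pathway were read in 5 lists, written with earlier results of these data known. They held 77 genes, of which 73 were measured at a brightest probe set. The fit without block called none of them in limma, and 12 had an unadjusted p below 0.05. When only the brightest probe set of each gene was fitted, 12 of the 73 and 1809 of all 19775 genes had such a p. With batch as block 5 were lower and 8 higher, where 1.7% and 6.73% of all genes were. That split of 5 lower and 8 higher was 7 and 8 after quantile normalization and 6 and 6 with equal medians. After cyclic loess it was 6 and 8, and with poly-A spike-in scaling it was 21 and 3, where 13.9% and 2.75% of all genes were called. Poly-A scaling moved the median difference of all probe sets to -0.11. The median difference was 0.02 over the 73 genes, as over all genes. The values below are from the fit with batch as block.

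In the list of immunoglobulin chains and pre-B receptor signalling 1 of 14 genes rose and 1 fell. BTK, a kinase needed for signals from the receptor, rose by 0.35, with 10.61 ± 0.07 under LEF1 siRNA and 10.26 ± 0.11 under scrambled siRNA (SD, n = 3 each; limma adjusted p = 0.00252). IGLC1, described above, was the one that fell. The receptor partners IGHM, CD79A and CD79B differed by -0.04, -0.07 and -0.11 and did not pass. Of 13 genes of recombination partners and end joining limma called 0. An unadjusted p below 0.05 was found for 9330 of all 54613 probe sets and for 6 of these 13 genes. Those with the smallest p were XRCC4, a ligase partner, at -0.21 (limma adjusted p = 0.0510) and PRKDC, the DNA-dependent kinase, at 0.25 (limma adjusted p = 0.0609). The count of 0 did not hold under every setting. XRCC4 passed as lower under quantile normalization, equal medians, cyclic loess and poly-A scaling (limma adjusted p = 0.0134, 0.0451, 0.0161 and 0.00199). With poly-A scaling 6 of the 13 passed as lower, where 13.9% of all genes did. PRKDC passed as higher without batch 1 or 3 (limma adjusted p = 0.00880 and 0.00331).

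Among 19 early B transcription factors 2 rose and 2 fell. MEF2C fell by 0.41, to 9.37 ± 0.14 with LEF1 siRNA, against 9.78 ± 0.13 with scrambled siRNA (SD, n = 3 each; limma adjusted p = 0.000813). TCF12, an E protein that binds E-boxes, rose by 0.40 (limma adjusted p = 0.00172), while its other 3 probe sets did not pass. Both other MEF2C probe sets passed too, at -0.34 and -0.29. BCL11A rose by 0.29 and BACH2 fell by 0.24. Further BCL11A probe sets passed at 0.46 and 0.27 (limma adjusted p = 0.000630 and 0.0105), but not at 0.18 (limma adjusted p = 0.139). The call of BCL11A at its brightest probe set was lost without batch 1 (limma adjusted p = 0.0786) and with poly-A scaling (limma adjusted p = 0.0798). That of BACH2 was lost without batch 2 or 3 (limma adjusted p = 0.0934 and 0.304), and its other probe set differed by -0.00032. PAX5, EBF1 and TCF3, the factors that set B cell identity, differed by 0.07, -0.08 and -0.03 and did not pass.

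In the interleukin 7 receptor signalling list 5 of 15 genes rose and 1 fell, and IL7, among those that rose, lay below the median. IL7R, a member chosen by this contrast, is outside this list and was lower. Whether its difference and those of the list are linked was not tested. JAK3 and JAK1, the kinases bound to the receptor, rose by 0.35 and 0.28, and IL2RG, the common chain that pairs with IL7R, rose by 0.27 (limma adjusted p = 0.00480, 0.0127 and 0.0209). The calls of JAK1 and IL2RG were lost with poly-A scaling (limma adjusted p = 0.0881 and 0.108), that of JAK1 also without batch 3 (0.0601) and that of IL2RG also without batch 1 (0.161). No further probe set of JAK3 or JAK1 passed. Those of JAK1 differed by -0.09, -0.02, -0.09 and -0.04, against its rise at the brightest. Those of JAK3 differed by 0.01, -0.00079 and 0.01. The survival gene MCL1, named after its values were seen, rose by 0.25. The ligand gene IL7, also named then, passed at 0.23, but it read 6.33 with LEF1 siRNA and 6.10 with scrambled siRNA, a level that could not be told from background. At the brightest probe set, each of these 2 passed in 4 of the 8 settings with batch as block. Other MCL1 probe sets passed at 0.44 and 0.38 (limma adjusted p = 0.00516 and 0.00315), while those at 0.17, 0.19 and 0.09 did not. CCND3, the cyclin D3 gene, fell by 0.47, at -0.40, -0.58 and -0.42 in batches 1, 2 and 3 (limma adjusted p = 0.000520). Of 12 surface genes of progenitors and precursors only MME, which encodes CD10, passed. It fell by 0.43, at -0.44, -0.39 and -0.46 in batches 1, 2 and 3 (limma adjusted p = 0.000605). The other MME probe set passed at -0.25, while the other CCND3 probe set differed by 0.05 and did not. At their brightest probe sets, BTK, MEF2C, TCF12, CCND3, JAK3 and MME passed with batch as block under all 4 other scalings and without each batch.

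**Figure D4:**
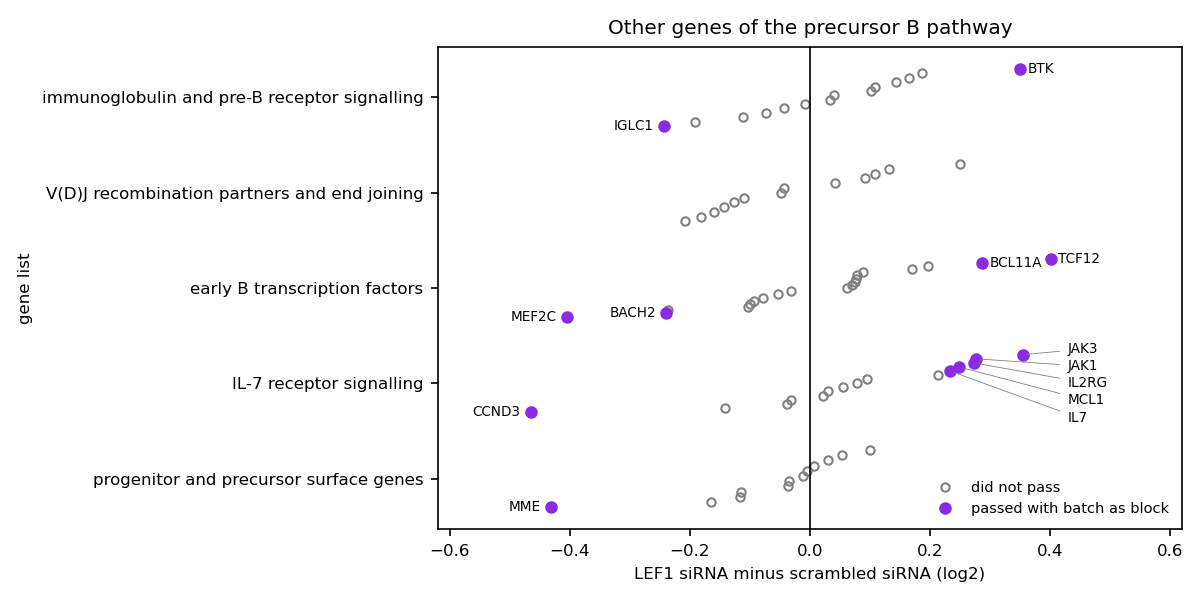
LEF1 siRNA minus scrambled siRNA (log2) for the other genes of the precursor B pathway at their brightest probe sets, 1 row of points per list; filled points passed with batch as block and are named. CCND3 at -0.47, MME at -0.43 and MEF2C at -0.41 lie lowest, and TCF12 at 0.40 lies highest.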

How the data were processed

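For each array the authors deposited a table of log2 expression by probe set (HG-U133 Plus 2.0 design), with values from 5.45 to 15.0. The authors' background correction and normalization are not given in the sources used here, and the log2 scale was read from that range. Cultures are biological replicates per the series' design text. The number of arrays limits the precision. No detection calls were used.

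After 62 control probe sets were left out, 54613 went into limma (version 3.58.1, R version 4.3.3), two-sided, with Benjamini-Hochberg adjustment and a threshold of 0.05. Without block, 4 residual degrees of freedom were left. The batch label pairs the arrays, and its arrays deviated together from their group means, with correlations across probe sets of 0.477, 0.493 and 0.621 in the 3 batches. The fit with batch as block had 2 residual and 12.0 prior degrees of freedom. Names came from probe sets annotated with 1 gene and were checked against RefSeq, which changed 0 symbols. The fits were tested on simulated data. Plots were made in matplotlib (version 3.10.9, Python version 3.11.15).

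Members and lists were chosen with earlier results of these data known. Named were LEF1, IGLL5, every member, up to 4 called genes per list with the smallest p with batch as block (up to 2 where none passed), and the 5 genes nearest IGLL1. IGHM, CD79A, CD79B, PAX5, EBF1 and TCF3 were added for their roles, and the called markers MME, CD40 and ELF3 were named, after their values were seen. Alternatives covered the block, scaling, dim probe sets, probe sets per gene, eBayes settings and leaving out arrays or batches. Combinations with the block were added after seeing the data.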

Additional observations from a re-analysis of the deposited data

How the results depend on the processing

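The differences of the 22 precursor B probe sets under 4 other scalings and without each batch gave 154 values. The probe sets called with batch as block kept their sign, but this contrast chose them, so nothing is read from that. Among the others the sign changed at the brighter RAG1 probe set (-0.11 to 0.11) and at CD34 (-0.10 to 0.09). It also changed at the SOX4 probe sets just under the median and at some of ERG. Of the 154 values, 17 moved by more than the SD of the batch differences, most of them under poly-A spike-in scaling. IGLL1 ranged from -1.31 to -1.11. Over all probe sets, the fit without block called 10. It called 23 after quantile normalization, 23 after cyclic loess, 5 with the brightest probe set of each gene, 6 with an intensity trend, and 0 to 8 without an array or a batch. The counts of 0 came from limma without LEF1 siRNA replicate 2 and without batch 1 or 2, where 3467, 3073 and 2366 had an unadjusted p below 0.05. With batch as block as replicate block, 3328 passed, of which 75.2% were higher. Further values with this block were 3315 (56.1% higher) for quantile scaling, 2785 (66.2%) for equal medians, 3240 (60.1%) for cyclic loess, 8797 (11.0%) for poly-A scaling, 3465 among probe sets above the median, and 3880, 1407 and 3626 without batches 1, 2 and 3. Of the 73 other pathway genes, 0 passed without block and 13 with the replicate block. Their counts with the block were 15, 12, 14 and 24 under the 4 scalings in the same order, 15 above the median, and 11, 10 and 14 without batches 1, 2 and 3. Probe sets differing between batches were 7462, and 48663 under poly-A scaling. The cause of these changes was not tested. An array left out leaves its group with 2, and the block fit without a batch rests mostly on the prior spread. Near the median level, background limits what a difference can show.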
